A study of Xenopus tropicalis with 7 samples.

Results

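Skeletal muscle identity in vertebrates is set by 4 related transcription factors, the myogenic regulatory factors encoded by *myod1*, *myf5*, *myf6* (also called *mrf4*) and *myog* (myogenin), and by the Mef2 factors that work beside them. The genes described here were chosen by name: these 4 together with *mef2a*, *mef2c* and *mef2d*, 7 of the 19884 genes in a table of read counts from *Xenopus tropicalis* embryos. All 7 had enough reads to be tested.

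The myogenic regulatory factors are basic helix-loop-helix proteins that bind E-box DNA as dimers with broadly expressed E proteins. *myod1* and *myf5* commit paraxial mesoderm to the muscle lineage, *myog* drives myoblasts into terminal differentiation, and *myf6* acts in both steps in the mouse. In vertebrate genomes *myf5* and *myf6* are neighbours. Mef2 proteins are MADS-box factors that do not start the muscle programme alone but switch on contractile genes together with the myogenic factors, and they are also used in heart, neurons, vessels and cranial neural crest. In the early *Xenopus* embryo *myod1* and *myf5* are expressed in the presumptive and segmenting muscle of the trunk, a territory in which the T-box factor Xbra (Brachyury) and its paralog Xbra3 act.

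Xbra/Xbra3 KD embryos had received 20 ng in total of antisense morpholinos that block splicing and translation of both *Xbra* and *Xbra3*, and control embryos 20 ng of a control morpholino, both as 1-cell embryos. Both groups were collected at stage 32, the early tadpole, with 3 biological replicates each. A single library came from uninjected embryos at stage 20, the early tailbud, so stage and injection cannot be told apart in any comparison with it. All embryos were of the wild-type Nigerian (Cam4) strain, and a library represents the poly(A) RNA equivalent of 2 whole embryos. The morpholinos act throughout the embryo and not in muscle alone, and in whole embryos fewer muscle cells and less RNA per muscle cell cannot be told apart.

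The deposited read counts of a library summed to between 73740300 and 108103730 in KD embryos, between 79219418 and 120160026 in control embryos and 119004036 at stage 20. Levels are given in CPM, the reads of a gene relative to the total of its library, which was adjusted by the trimmed mean of M values (TMM). A gene was called when its false discovery rate (FDR) over all 16944 genes tested was below 10% in edgeR's quasi-likelihood test. *Xbra3*, listed as *t2*, had 0.614 ± 0.138 CPM (SD, n = 3) in the KD against 22.1 ± 6.73 CPM in the control group (FDR 0.000768). *Xbra*, listed as *t*, had 7.53 ± 1.14 CPM in the KD against 14.5 ± 4.05 CPM in the control group (FDR 0.0551).

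At stage 32 all 7 genes were lower in the Xbra/Xbra3 KD, with every KD library below every control library. Of all genes tested, 14.6% were placed in this way. The test called 6 of the 7 genes lower, with *mef2d* the exception, against 6.98% of all genes. It called none of the 7 higher, against 7.44% of all genes, and all 7 log2 fold changes were below 0, in DESeq2's test as well. The median log2 fold change of the 7 genes was -0.80, beside 0.01 over all genes. The falls covered a wide range, from 3.58-fold for *myod1* and 3.37-fold for *myog* to 1.50-fold for *mef2a* and 1.49-fold for *mef2c*.

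**Figure D1:**
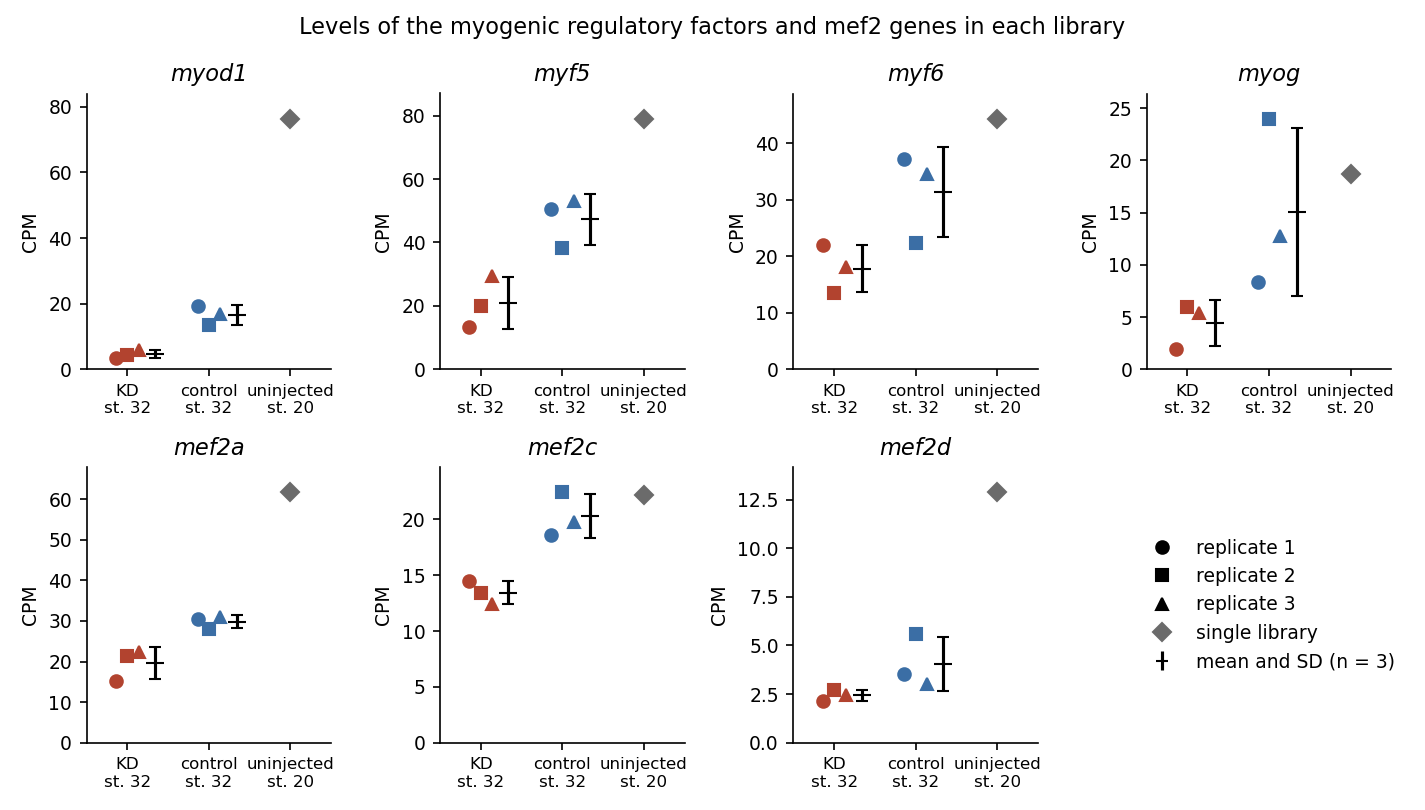
Level of each gene in CPM (vertical axes, starting at 0, TMM scaling over all 7 libraries) in the 3 Xbra/Xbra3 KD libraries and the 3 control libraries of stage 32 and in the single uninjected library of stage 20, with symbols for the replicate number and bars for the mean and SD. All KD points lie below all control points in every panel, and the stage 20 point lies above all control points for 5 of the 7 genes, *myog* and *mef2c* being the other two.

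*myod1* (ENSXETG00000001320), the founding member of the family, showed the clearest difference. It stood at 3.55, 4.39 and 6.10 CPM in KD replicates 1, 2 and 3, against 19.6, 13.7 and 17.1 CPM in control replicates 1, 2 and 3. The highest KD library was thus well under the lowest control library, and KD replicate 1 was the lowest of all. The means were 4.68 ± 1.30 CPM in KD embryos and 16.8 ± 2.96 CPM in control embryos (SD, n = 3 each), a log2 fold change of -1.84 with a standard error of 0.24 and a 95% interval of -2.39 to -1.29 (FDR 0.00647). At least 349 reads lay behind each KD value. *myod1* was called in all 6 fits that left out 1 library, with FDRs between 0.00731 and 0.0418, and under every scaling tried.

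*myf5* (ENSXETG00000014520), which acts beside *myod1* at the entry into the lineage, stood at 13.5, 20.5 and 30.2 CPM in KD replicates 1, 2 and 3, against 51.1, 38.8 and 53.3 CPM in the control replicates. KD replicate 1 was again the lowest and KD replicate 3 came closest to the control libraries, without reaching them. With means of 21.4 ± 8.38 CPM in KD embryos and 47.7 ± 7.81 CPM in control embryos, the gene was 2.23-fold lower (log2 fold change -1.16, standard error 0.28, 95% interval -1.80 to -0.51, FDR 0.0472). The call was lost without KD replicate 2 (FDR 0.112), without control replicate 1 (0.108) and without control replicate 3 (0.154), while the log2 fold change stayed between -1.51 and -0.91 in all 6 such fits.

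*myf6* (ENSXETG00000027340), the neighbour of *myf5*, was at 22.3, 13.9 and 18.5 CPM in KD replicates 1, 2 and 3, against 37.5, 22.8 and 34.8 CPM in the control replicates. Here replicate 2 was the lowest in both groups, and control replicate 2 lay barely above KD replicate 1. The mean was 18.2 ± 4.23 CPM in KD embryos and 31.7 ± 7.86 CPM in control embryos, 1.74-fold lower in the KD (log2 fold change -0.80, standard error 0.24, 95% interval -1.34 to -0.25, FDR 0.0841). It was no longer called without KD replicate 2 (FDR 0.182), KD replicate 3 (0.184), control replicate 1 (0.197) or control replicate 3 (0.228). Its differences within same-numbered pairs were the most even of the myogenic factors, at -0.75, -0.71 and -0.91 on the log2 scale, and a block for the replicate number brought its FDR to 0.00110.

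*myog* (ENSXETG00000001704), the differentiation factor, stood at 1.94, 6.12 and 5.54 CPM in KD replicates 1, 2 and 3, against 8.45, 24.4 and 12.8 CPM in the control replicates. The groups did not overlap, but the libraries of a group differed more than for any other of the 7 genes, with control replicate 2 far above the other two. The means of 4.54 ± 2.26 CPM in KD embryos and 15.2 ± 8.23 CPM in control embryos gave a log2 fold change of -1.75 with a standard error of 0.50, a 95% interval of -2.91 to -0.60 and an FDR of 0.0746. Of the fits that left out 1 library only that without control replicate 1 kept the call (FDR 0.0647). It was lost without KD replicates 1, 2 and 3 (FDR 0.131, 0.102 and 0.147) and without control replicates 2 and 3 (0.132 and 0.160). Control replicate 2 moved the size most, to a log2 fold change of -1.26 without it. Scaling to 4 reference genes also ended the call (-1.73, FDR 0.113). Within same-numbered pairs the differences were -2.12, -1.99 and -1.21, and the block gave an FDR of 0.000481.

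Of the *mef2* genes, *mef2a* (ENSXETG00000018788) was at 15.3, 21.9 and 23.0 CPM in KD replicates 1, 2 and 3, against 30.8, 28.4 and 31.2 CPM in the control replicates. The control libraries lay close together and KD replicate 1 stood lowest. The means were 20.1 ± 4.12 CPM in KD embryos and 30.1 ± 1.54 CPM in control embryos, with a log2 fold change of -0.59, a standard error of 0.17 and a 95% interval of -0.98 to -0.20 (FDR 0.0774). The call did not hold without KD replicate 1 (FDR 0.136), KD replicate 2 (0.114), control replicate 1 (0.163) or control replicate 3 (0.209), nor with scaling by library size only (0.131) or to the 4 reference genes (0.157).

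*mef2c* (ENSXETG00000007038), which in the mouse is needed for heart as well as skeletal muscle, stood at 14.7, 13.7 and 12.7 CPM in KD replicates 1, 2 and 3, against 18.7, 22.8 and 19.9 CPM in the control replicates. Both groups were tight, and the gap between them was wider than the range of the KD libraries. The means of 13.7 ± 0.978 CPM in KD embryos and 20.5 ± 2.09 CPM in control embryos gave a log2 fold change of -0.58 with a standard error of 0.14 and a 95% interval of -0.90 to -0.26 (FDR 0.0438). The FDR passed 10% without KD replicate 2 (0.108), KD replicate 3 (0.112) or control replicate 3 (0.131), and with the 4 reference genes (0.119).

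*mef2d* (ENSXETG00000020378), expressed early in *Xenopus* muscle precursors, had the fewest reads of the 7 genes in most libraries, between 222 and 275 in the KD libraries. It was at 2.18, 2.79 and 2.51 CPM in KD replicates 1, 2 and 3, against 3.55, 5.70 and 3.03 CPM in the control replicates. The KD libraries were alike, whereas control replicate 2 stood apart from control replicates 1 and 3. With means of 2.49 ± 0.306 CPM in KD embryos and 4.09 ± 1.42 CPM in control embryos, the log2 fold change was -0.73 with a standard error of 0.28 and a 95% interval of -1.37 to -0.08, and the FDR of 0.154 missed the threshold. Without control replicate 2 the log2 fold change was -0.43 (FDR 0.312). *mef2d* passed the threshold when the replicate number entered as a block (-0.68, FDR 0.0267) and in DESeq2's test (-0.73, FDR 0.0667), which called all 7 genes lower, and 9.64% of all genes.

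**Figure D2:**
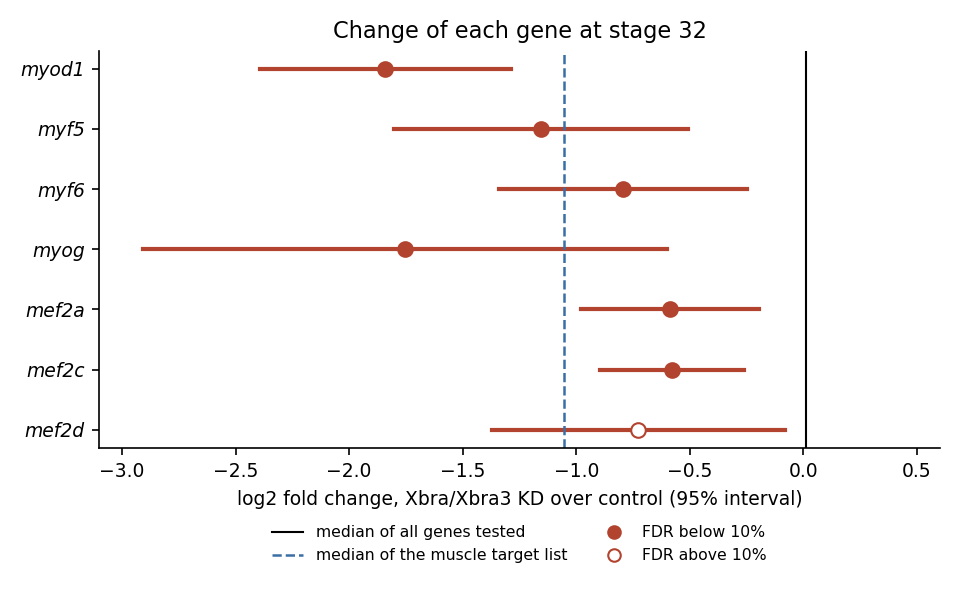
Log2 fold change of each gene, Xbra/Xbra3 KD over control at stage 32 (horizontal axis), with its 95% interval from edgeR's fit over 6 libraries, filled where the FDR was below 10%. All 7 intervals lie below 0, that of *myod1* wholly below and those of *mef2a* and *mef2c* wholly above -1.05, the median of the muscle target list drawn as a dashed line.

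KD and control libraries that share a replicate number deviated together from their group means over all genes, so each KD library can be set against the control library of its number. All 7 genes were lower in all 3 pairs, and the share of all genes lower in all 3 pairs was not computed. The largest drop of *myod1*, *myf5*, *myog* and *mef2a* was in pair 1, at -2.47, -1.92, -2.12 and -1.01 on the log2 scale. Pair 2 held the largest drop of *mef2c*, -0.73, and of *mef2d*, -1.03. With the number as a block in the fit, the test called all 7 genes lower, and 19.0% of all genes. Leaving replicate 2 out of both groups, a choice made after the data were seen, left 3 called (*myod1*, *myf5* and *myf6*), where 4.41% of all genes were. Scaling to the 4 reference genes also left 3 of the 7 (*myod1*, *myf5* and *myf6*), with 4.31% of all genes, and scaling by library size only left 5, all but *mef2a* and *mef2d*, with 5.13% of all genes. Leaving out 1 library at a time left between 1 and 5 of the 7 called. Without KD replicates 1, 2 and 3 there were 4, 1 and 3, beside 3.71%, 3.93% and 4.60% of all genes. Without control replicates 1, 2 and 3 there were 3, 5 and 1, beside 4.14%, 6.21% and 2.58% of all genes. Where 1 gene remained it was *myod1*. All 7 log2 fold changes stayed below 0 in each of these fits.

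**Figure D3:**
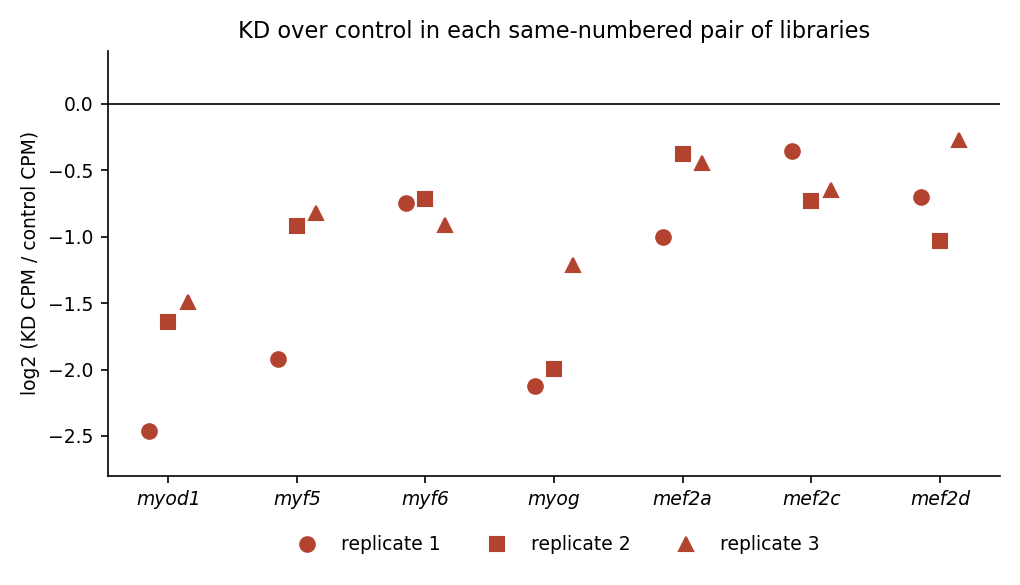
Log2 ratio of CPM in each Xbra/Xbra3 KD library to the control library of the same replicate number (vertical axis) for the 7 genes, with a symbol for each of the 3 pairs. All 21 points lie below 0, between -2.47 for *myod1* in pair 1 and -0.27 for *mef2d* in pair 3.

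Genes of the kind that these factors are known to switch on were read from a list of 58 fusion, receptor and contractile genes. Not all of its genes are restricted to skeletal muscle. Of the 49 tested, 33 were called lower in KD embryos and none higher, beside 6.98% and 7.44% of all genes. The median log2 fold change was -1.05. The log2 fold change was below 0 for 44 and above 0 for 5. At an unadjusted p below 0.05 there were 38 lower and none higher, and DESeq2's test called 37 lower and none higher. With the replicate block 41 were lower and 2 higher, beside 3213 lower and 3255 higher of all 16944 genes. The summed level of the list lay between 21237 and 23784 CPM in the KD libraries and between 42797 and 45006 CPM in the control libraries. Among its genes, the myosin heavy chain gene *myh2* stood at 204 ± 22.1 CPM in KD embryos, against 1152 ± 93.5 CPM in control embryos (FDR 0.000625). *myh4*, also a myosin heavy chain gene, stood at 358 ± 118 CPM in KD embryos, against 1472 ± 222 CPM in control embryos (FDR 0.00634). *cacna1s*, the voltage sensor of the muscle calcium channel, was at 3.36 ± 0.565 CPM in KD embryos and 14.6 ± 0.107 CPM in control embryos (FDR 0.00198). The acetylcholine receptor subunit genes *chrna1* and *chrng* of the neuromuscular synapse had log2 fold changes of -1.16 (FDR 0.0200) and -1.09 (FDR 0.0387), and creatine kinase *ckm* one of -1.44 (FDR 0.0275). Others missed the threshold, among them *atp2a1*, the calcium pump of the sarcoplasmic reticulum (-0.34, FDR 0.220), and *cdkn1a*, a cell cycle inhibitor that is also active outside muscle (0.24, FDR 0.561). The last 5 of these genes were picked after their values had been seen. The same libraries gave this list and the 7 regulators, so the list is no independent measure of the knockdown.

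Each of the 7 genes was then set against the mean log2 CPM of the 49 target genes in its own library. The scaling between libraries cancels in this difference, apart from its effect on a small prior count added to the reads. *myod1* was at -3.80, -3.47 and -3.21 relative to the list in KD replicates 1, 2 and 3, against -2.38, -2.90 and -2.53 in the control replicates. The gap to the target mean, present in the control libraries already, was wider in all KD libraries, with a mean difference of -0.89 (exact two-sided permutation test, p = 0.1, the smallest that 3 libraries against 3 can give). *mef2c* lay at -1.75, -1.83 and -2.15 in KD replicates 1, 2 and 3, against -2.44, -2.17 and -2.31 in the control replicates. Its KD libraries were all above its control libraries, with a mean difference of 0.39 (exact p = 0.1). The list mean itself differed by -0.99 between KD and control libraries, so a gene with no change would lie higher relative to it. How many of all genes were placed like *myod1* or *mef2c* was not counted. For the other five genes the groups overlapped, with mean differences of -0.25 for *myf5*, 0.18 for *myf6*, -0.80 for *myog*, 0.36 for *mef2a* and 0.30 for *mef2d* (exact p between 0.2 and 0.7). None of the 7 differences can reach 0.05 in this design. Within same-numbered pairs, *myod1* (-1.42, -0.57 and -0.68) and *myog* (-1.07, -0.92 and -0.41) were lower relative to the list in all 3, and *mef2a* (0.03, 0.69 and 0.36), *mef2c* (0.69, 0.34 and 0.16) and *mef2d* (0.34, 0.04 and 0.53) were higher in all 3. *myf5* and *myf6* differed in sign between pairs. When 1 library was left out the mean difference stayed between -1.04 and -0.74 for *myod1*, -1.16 and -0.30 for *myog*, 0.25 and 0.51 for *mef2a*, 0.32 and 0.51 for *mef2c*, and 0.13 and 0.56 for *mef2d*. It changed sign for *myf5*, between -0.47 and 0.02, and for *myf6*, between -0.05 and 0.32.

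**Figure D4:**
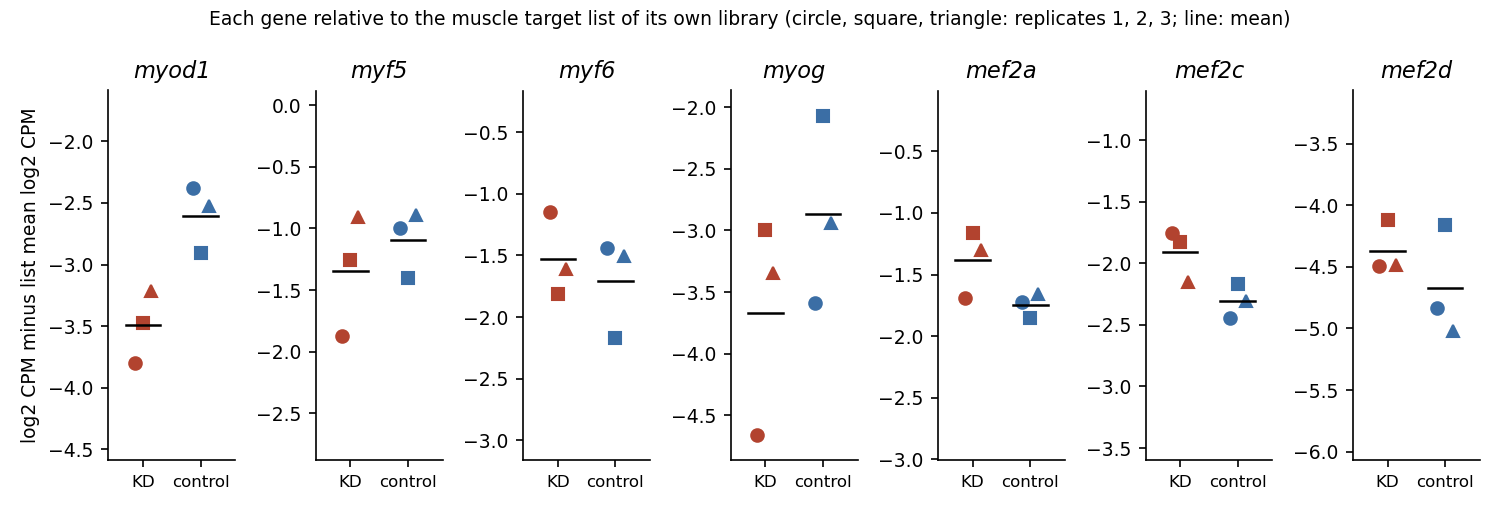
Log2 CPM of each gene minus the mean log2 CPM of the 49 muscle target genes in the same library (vertical axes, each spanning 3 log2 units), for the 3 Xbra/Xbra3 KD and the 3 control libraries, with lines at the means. *myod1* is lower in every KD library than in any control library, *mef2c* is higher, and the groups of the other five genes overlap.

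Ratios between the 7 genes within a library described whether they moved by unequal amounts. They are ratios of reads and not of molecules, as transcript lengths differ. The ratio of *myod1* to *myf5* reads was 0.264, 0.215 and 0.202 in KD replicates 1, 2 and 3, against 0.384, 0.353 and 0.321 in the control replicates. This ratio was lower in each KD library than in any control library, with a mean log2 difference of -0.64. The ratio of *myf6* to *myod1* reads was 6.26, 3.15 and 3.03 in the KD replicates, against 1.91, 1.66 and 2.03 in the control replicates, a mean log2 difference of 1.07 with no overlap. Both had an exact permutation p of 0.1, or 0.4 after Benjamini-Hochberg adjustment over the 8 ratios compared. The log2 ratio of *myod1* to *mef2d* had a mean difference of -1.19 with overlapping groups (exact p = 0.2), and was lower in the KD in all 3 pairs (-1.76, -0.61 and -1.21). The groups also overlapped for *myod1* to *myog* (-0.09, exact p = 1) and *myf5* to *myog* (0.55, exact p = 0.6), where leaving out 1 library gave values between -0.64 and 0.38 and between -0.00065 and 0.96. Among the *mef2* genes the 3 mean differences were between -0.06 and 0.09 (exact p = 0.9 each), and each changed sign in at least 1 fit without a library.

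Each *mef2* gene is represented by 2 transcripts and each myogenic factor by 1. For *mef2a* nearly all reads were on ENSXETT00000040728. The other transcript, ENSXETT00000040732, held 1.08%, 0.633% and 0.754% of the reads in KD replicates 1, 2 and 3, against 0.145%, 0.470% and 0.208% in the control replicates. The share was higher in every KD library than in any control library (exact p = 0.1), but it rests on 17, 11 and 19 reads in the KD replicates and 5, 15 and 5 in the control replicates. The 95% Wilson intervals were 0.677% to 1.73%, 0.354% to 1.13% and 0.483% to 1.18% in KD replicates 1, 2 and 3. That of control replicate 2 (0.285% to 0.774%) overlaps all 3 of them. That of control replicate 3 (0.0889% to 0.486%) overlaps those of KD replicates 2 and 3. Only that of control replicate 1 (0.0620% to 0.339%) lies below all KD intervals. Such intervals cover counting error only. The lesser transcript of *mef2c* held between 25.5% and 32.6% of its reads in KD libraries and between 25.4% and 30.3% in control libraries (exact p = 0.8). For *mef2d* the shares were between 20.4% and 44.6% in KD libraries and between 27.0% and 33.2% in control libraries (exact p = 0.8). A read pair found on both transcripts was counted once, and which of them received it is not given in the sources used here.

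The stage 20 library places these levels against an earlier point of muscle development, when somites are still forming along the trunk. With 1 library there is no replicate check, and scaling was repeated over all 7 libraries. *myod1* showed the widest span, with 4.57 ± 1.25 CPM in KD embryos and 16.6 ± 3.00 CPM in control embryos at stage 32, and 76.4 CPM at stage 20. The earlier library was thus 4.59 times the control mean and 16.7 times the KD mean. *mef2d* had 2.44 ± 0.290 CPM in KD embryos and 4.05 ± 1.38 CPM in control embryos, and 12.9 CPM at stage 20, 3.18 times the control mean. *mef2a* had 19.6 ± 3.92 CPM in KD embryos and 29.9 ± 1.68 CPM in control embryos, and 61.7 CPM at stage 20, 2.07 times the control mean. These 3 of the 7 genes were at least 2-fold above the control mean at stage 20, as were 12.8% of all genes. With scaling by library size only *mef2a* was under 2-fold, at a log2 ratio of 0.93, which leaves 2 of the 7.

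The remaining genes differed less between the stages. *myf5* had 20.9 ± 8.09 CPM in KD embryos, 47.3 ± 7.97 CPM in control embryos and 79.1 CPM at stage 20. *myf6* had 17.8 ± 4.21 CPM in KD embryos, 31.4 ± 7.92 CPM in control embryos and 44.4 CPM at stage 20. Both were above every control library at stage 20, at 1.67 times the control mean for *myf5* and 1.41 times for *myf6*. *myog* had 4.43 ± 2.20 CPM in KD embryos, 15.0 ± 8.06 CPM in control embryos and 18.7 CPM at stage 20. *mef2c* had 13.4 ± 1.03 CPM in KD embryos, 20.3 ± 1.97 CPM in control embryos and 22.2 CPM at stage 20. For both the stage 20 library did not exceed control replicate 2, at 24.0 CPM for *myog* and 22.4 CPM for *mef2c*. In all, 5 of the 7 genes were higher at stage 20 than in every control library, where 39.0% of all genes were. For the same 5 the order was thus KD lowest, control between and stage 20 highest, with no overlap, a pattern met by 4.23% of all genes. Its KD part, already given for all 7 genes, was met by 14.6% of all genes with the scaling over the 6 stage 32 libraries. These 5 are *myod1*, *myf5*, *myf6*, *mef2a* and *mef2d*. The order rests on 1 uninjected stage 20 library, and its cause was not tested. The mean log2 CPM of the 49 target genes was 5.66 in KD embryos, 6.64 in control embryos and 6.16 at stage 20. This mean was 1.40-fold lower at stage 20 than in control embryos and lay above that of KD embryos. Of the 49 target genes, 37 were lower in every KD library than in any control library with this scaling over 7 libraries. The share of all genes, 14.6%, was taken with the scaling over the 6 stage 32 libraries. There the groups overlapped for more of the targets, *atp2a1* and *mybpc3* among them. At stage 20, 24 were lower than in any control library, and the share of all genes placed so was not computed.

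Genes that act upstream of or beside the myogenic factors did not move in one direction. Of 20 tested, 2 were called lower and 5 higher in KD embryos, beside 6.98% and 7.44% of all genes. The median log2 fold change was -0.01. *msgn1*, a factor of unsegmented paraxial mesoderm, was at 0.199 ± 0.285 CPM in KD embryos and 10.1 ± 4.28 CPM in control embryos (FDR 0.00688). *tcf15*, a somite factor, was at 2.62 ± 1.01 CPM in KD embryos and 5.69 ± 1.81 CPM in control embryos (FDR 0.0914). *pax3*, which activates *myf5* and *myod1* in amniotes and also marks dorsal neural tube and neural crest, was higher, at 22.3 ± 3.03 CPM in KD embryos and 11.3 ± 2.31 CPM in control embryos (FDR 0.0230). So was *tbx1*, needed for head muscle, at 154 ± 8.06 CPM in KD embryos and 80.9 ± 8.38 CPM in control embryos (FDR 0.00601), and the Wnt ligand gene *wnt11*, at 65.9 ± 8.92 CPM in KD embryos and 42.3 ± 4.95 CPM in control embryos (FDR 0.0402). The list summed to between 930 and 1002 CPM in KD libraries and between 734 and 871 CPM in control libraries. Many of its genes are also expressed outside muscle, and *ebf2*, which was called higher, is also among the neuron markers below. With the replicate block 6 were lower and 7 higher, beside 3213 lower and 3255 higher of all 16944 genes. Without replicate 2 of both groups 2 were lower and 2 higher, beside 735 lower and 661 higher of all 16655 genes.

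The 16 tested E proteins and basic helix-loop-helix antagonists, which either pair with the myogenic factors or keep them from DNA, included none called in either direction. At an unadjusted p below 0.05 edgeR gave 1 lower and 4 higher, and DESeq2's test called 1 lower and 1 higher. In the fit with the replicate block 1 was lower and 5 higher, beside 3213 lower and 3255 higher of all 16944 genes. With scaling by library size only 4 were called higher. *tcf3*, *tcf12* and *tcf4*, the E protein genes, had log2 fold changes of 0.03, 0.07 and -0.17, and *id3*, an inhibitor of E proteins, one of 0.59 (FDR 0.138). These 4 genes were picked after their values had been seen.

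Of 25 tested partners and regulators of Mef2, 3 were called lower and 4 higher in KD embryos, beside 6.98% and 7.44% of all genes. The median log2 fold change was 0.12. The 3 lower ones were *smyd1*, a histone methyltransferase of striated muscle, at 3.47 ± 0.413 CPM in KD embryos and 7.56 ± 0.927 CPM in control embryos (FDR 0.0146), *vgll2*, a cofactor of TEAD and Mef2 factors in muscle (log2 fold change -0.92, FDR 0.0252), and *ppargc1a*, a coactivator (-0.50, FDR 0.0750). Among the higher ones, *mkl2* and *myocd*, coactivators of the serum response factor, had log2 fold changes of 0.86 (FDR 0.0179) and 0.68 (FDR 0.0515). *prkd1*, a kinase that releases class II histone deacetylases from Mef2, had one of 0.73 (FDR 0.0303). With the replicate block 4 of the list were lower and 9 higher, beside 3213 lower and 3255 higher of all 16944 genes.

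As *mef2* genes are used outside skeletal muscle, markers of the other tissues that express them were counted beside them. Heart markers had 1 gene called lower (*smyd1*, shared with the list above) and 1 higher (*gata5*, log2 fold change 0.51, FDR 0.0633) of 19 tested, and summed to between 486 and 562 CPM in KD libraries and between 427 and 528 CPM in control libraries. Neuron markers had 6 called higher and none lower of 24 tested, and summed to between 2088 and 2391 CPM in KD libraries and between 1523 and 1833 CPM in control libraries. Those called were the neural progenitor genes *sox2* and *sox3*, the proneural gene *neurog3*, and *ebf2*, *isl1* and *tubb2b*. The list thus holds genes of neural progenitors as well as of neurons. *neurog3* was at 11.8 ± 2.36 CPM in KD embryos and 5.54 ± 1.24 CPM in control embryos (FDR 0.0294). Much of the sum was *tubb2b*, at 901 ± 72.8 CPM in KD embryos and 612 ± 91.3 CPM in control embryos. Of the 24, 20 had log2 fold changes above 0 and 4 below. *elavl3* (0.02), *neurod1* (-0.08) and *gad1* (-0.35), picked after their values had been seen, were not called. Cranial neural crest markers had 3 called higher and none lower of 16 tested. They summed to between 926 and 1096 CPM in KD libraries and between 797 and 893 CPM in control libraries. The 3 were *msx1* (0.69, FDR 0.0682), *sox10* (0.62, FDR 0.0433) and *dlx5* (0.50, FDR 0.0614). The largest part of both sums was *msx1*, with means of 247 ± 38.9 CPM (KD) and 153 ± 32.6 CPM (control), and it also rose most in CPM. Of the 16, 14 had log2 fold changes above 0. The 2 below 0 were *ets1* (-0.41) and *dlx2* (-0.31), and neither was called. At an unadjusted p below 0.05 no neuron marker and 1 crest marker were lower, and DESeq2's test called as many. Endothelial markers had 1 called lower and none higher of 14 tested, *cdh5* or VE-cadherin, at 13.9 ± 0.715 CPM in KD embryos and 29.9 ± 3.83 CPM in control embryos (FDR 0.00582), and summed to between 370 and 417 CPM in KD libraries and between 462 and 508 CPM in control libraries. At an unadjusted p below 0.05 there were 5 endothelial markers lower and 1 higher, and DESeq2's test called 4 lower and 1 higher. The main fit called 6.98% of all genes lower and 7.44% higher, and the heart and endothelial calls are near these shares. With the replicate block the counts were 3 lower and 8 higher for heart and 13 higher for neurons. They were 2 lower and 6 higher for crest and 5 lower and 1 higher for vessels. Of all 16944 genes the block fit called 3213 lower and 3255 higher. Without replicate 2 of both groups the marker counts were 2 lower for heart, 3 higher for neurons, 2 higher for crest and 2 lower for vessels. That fit called 735 lower and 661 higher of all 16655 genes. The part of these tissues in the levels of *mef2a*, *mef2c* and *mef2d* was not tested.

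**Figure D5:**
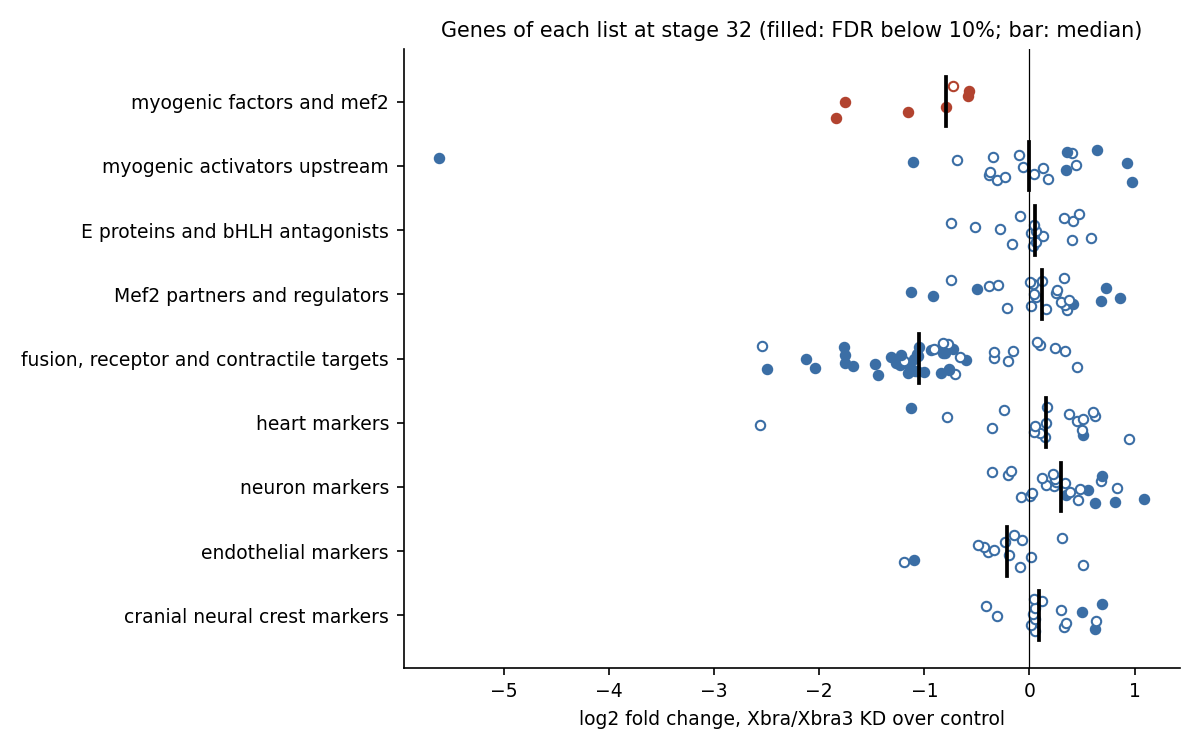
Log2 fold change, Xbra/Xbra3 KD over control at stage 32 (horizontal axis), of the 7 genes and of every tested gene of the 8 lists, 1 point a gene, filled where the FDR was below 10%, with a bar at the median of each row. Only the 7 genes and the muscle targets have medians well below 0 (-0.80 and -1.05), while the other medians lie between -0.21 and 0.30.

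Over the 7 libraries the genes whose log2 CPM followed each member most closely were found among 14088 genes by Pearson correlation. This is a description with no test, since libraries of the same group share their condition and stage 20 has 1 library. In that library *myod1* was at 76.4 CPM, against 3.49 to 19.4 CPM in the others. The r values and ranks of *myod1* can thus rest largely on that library, and they were not computed without it. *myod1* was most like *il17rd*, an antagonist of FGF signalling (r = 0.995), *itgb1bp2*, which encodes the muscle protein melusin (r = 0.993), and *mpzl3* (r = 0.992). *mef2a* was the member nearest to *myod1* (r = 0.976), followed by *myf5* (r = 0.948), whereas *myog* was farther off (r = 0.769). In likeness to *myod1* these genes ranked 50, 189 and 1594 in that order, among the 14088 genes. *myf5* was most like *zdhhc24* (r = 0.985) and *chrna1.2*, listed under an acetylcholine receptor symbol (r = 0.983). *myf6* came close to *b4galt7* (r = 0.999) and *gnpnat1* (r = 0.998), and *myog* to *fxyd6* (r = 0.988). The nearest genes to *mef2a*, *mef2c* and *mef2d* were *fam83g* (r = 0.994), *ramp1* (r = 0.997) and LOC100492283 (r = 0.996). *eya1*, a transcription cofactor of muscle precursors and placodes, was the third nearest to *mef2d* (r = 0.987). The lowest correlation between any pair of the 7 genes was that of *myf6* with *myog* (r = 0.464).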

How the data were processed

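Per the study's methods, the authors aligned 55-base read pairs with Bowtie 0.12.7 to the Ensembl JGI4.1 transcriptome (release not given in the sources used here), discarded pairs on transcripts of different genes and deposited unnormalized read counts per transcript. Versions follow the submitters' processing notes. The header holds 6 empty fields before its 7 names, which were assigned to the 7 value columns in their order. The level of *t2* separates the 3 columns named KD from the 3 named control, while the order of replicates rests on the header alone.

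Counts of 24160 transcripts were summed to 19884 genes. Of 766 genes with RefSeq identifiers, 711 were given symbols. edgeR 4.0.16 (R 4.3.3) tested genes with at least 10 reads over the 6 stage 32 libraries, with TMM, non-legacy quasi-likelihood dispersions and Benjamini-Hochberg adjustment over all genes. DESeq2 1.42.0, other scalings (DESeq2 size factors, library size only, the 4 reference genes *odc1*, *rpl8*, *eef1a1* and *gapdh*), other filters, the most-read transcript, a replicate block and leaving out libraries were alternatives. Of these methods only the main edgeR fit was tested on simulated counts, which were drawn without a replicate effect.

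Replicate numbers were taken to pair KD and control libraries, since deviations from the group means correlated over 16944 genes at r = 0.573, 0.586 and 0.316 between libraries of the same number and at -0.510 to 0.00961 between others. Deviations cancel within a group, so the low values between others are not separate support. From each list, up to 3 called genes a direction were named by fold change, with at least 20 reads on average in the higher group and 1 direction in all pairs, and for each of the 7 genes its nearest genes by Pearson correlation of log2 CPM (prior count 2). The genes and lists were chosen with earlier results of these data known.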

Additional observations from a re-analysis of the deposited data

How the results depend on the processing

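Of 16944 genes, 1182 were called lower and 1261 higher, so that 48.4% of calls were lower. The counts were 3213 and 3255 with the replicate block, 735 and 661 without replicate 2 of both groups, 731 and 1283 with the 4 reference genes (36.3% lower), 869 and 1649 with library size only (34.5% lower), and between 435 and 1043 lower and 433 and 918 higher when 1 library was left out. Of the 7 genes, 6 were called lower, against 3 without replicate 2 of both groups, 3 with the 4 reference genes and between 1 and 5 when 1 library was left out. Log2 fold changes that lost the threshold were, without replicate 2 of both groups, -1.53 for *myog*, -0.72 for *mef2a* and -0.52 for *mef2c*, with the 4 reference genes -1.73 for *myog*, -0.52 for *mef2a* and -0.53 for *mef2c*, and with library size only -0.51 for *mef2a*. *mef2d* passed it with DESeq2's test (-0.73) and the replicate block (-0.68), which changed the call of no other of the 7 genes. When 1 library was left out, values were between -1.51 and -0.91 for *myf5*, -1.01 and -0.65 for *myf6*, -2.05 and -1.26 for *myog*, -0.71 and -0.43 for *mef2a* and -0.64 and -0.52 for *mef2c*. The log2 ratio of the stage 20 library to the control mean for *mef2a* was 0.93 with library size only, against 1.05, which puts it under 2-fold. No direction of the 7 fold changes was reversed under any alternative run. The cause of these shifts was not tested, and the fits that left a library out also had fewer libraries. Library size only and the 4 reference genes moved the median of all genes to 0.08 and 0.07. As stage 20 has 1 library, the error of its comparisons cannot be estimated.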
